A study of Mus musculus with 12 samples.

Results

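The genes described here are 35 genes for basement membrane proteins and for the integrins and other receptors that bind them, taken as a list of mouse symbols and matched to the rows of the deposited count table. All 35 were found among 53700 gene identifiers, 28444 of which had at least 1 count. They comprise 8 laminin chains, 6 collagen IV chains, 6 linkers, proteoglycans and matrix glycoproteins, 6 integrin alpha chains, 5 integrin beta chains and 4 other receptors or partners. In the fit over 12 libraries 33 of them passed the filter on low counts; Lama1 and Col17a1 did not, with at most 3 and 2 reads in a library.

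RNA was sequenced from untreated organoids of bile duct epithelium (intrahepatic cholangiocytes) grown in Matrigel, a gel of basement membrane extract, and collected at passage 5. From each of 6 mice came 1 hilar culture, from the part of the liver where the large ducts lie, and 1 peripheral culture. The WT mice were Jag1+/+ (1221, 1223 and 1225), and the Ndr mice were Jag1 Ndr/Ndr, homozygous for a missense allele of the Notch ligand Jag1 (1219, 1220 and 1224). The 4 groups were thus WT hilar, WT peripheral, Ndr hilar and Ndr peripheral, with 3 cultures from 3 mice in each. The allele is carried by the germline, so every cell of an Ndr culture holds it. For the mice, the sources used here give no age, sex or strain background. JAG1 is the gene mutated in most patients with Alagille syndrome, in which bile ducts are too few.

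A basement membrane is the thin matrix sheet under an epithelium. Laminins, heterotrimers of an alpha, a beta and a gamma chain, and collagen IV, built from trimers of its own alpha chains, each form a network, and nidogens, perlecan and agrin join the networks. Epithelial cells hold the sheet through integrins, which are dimers of an alpha and a beta chain, and through dystroglycan and Bcam. In the liver, bile ducts rest on a continuous basement membrane rich in laminin, whereas hepatocytes do not. Only RNA was measured, so matrix protein supplied by the gel does not enter the counts.

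Collagen IV chains are encoded in head-to-head gene pairs, and the starts of 2 such pairs are shown because Col4a1 and Col4a2 gave the closest agreement across mice of the pairs compared, and Col4a3 and Col4a4 were lower in Ndr peripheral than in WT peripheral cultures. The windows run from 250 bases before the listed start to 50 bases from it and come from RefSeq on GRCm38.p6. Col4a1 (chr8:11312777-11313076, minus strand) and Col4a2 (chr8:11312555-11312854, plus strand) have listed starts 21 bases apart. Their windows overlap by 78 bases (chr8:11312777-11312854), set in capitals in both lines. In the window of Col4a4 (chr1:82586800-82587099, minus strand), capitals mark the 71 bases between its listed start and the first base of its neighbour Col4a3.
Col4a1: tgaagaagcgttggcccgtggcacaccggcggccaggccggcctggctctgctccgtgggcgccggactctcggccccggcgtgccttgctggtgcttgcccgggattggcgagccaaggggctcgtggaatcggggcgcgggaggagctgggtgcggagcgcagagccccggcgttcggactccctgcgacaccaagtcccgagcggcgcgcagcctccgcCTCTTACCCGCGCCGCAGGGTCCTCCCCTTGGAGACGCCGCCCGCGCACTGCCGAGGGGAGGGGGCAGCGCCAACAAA
Col4a2: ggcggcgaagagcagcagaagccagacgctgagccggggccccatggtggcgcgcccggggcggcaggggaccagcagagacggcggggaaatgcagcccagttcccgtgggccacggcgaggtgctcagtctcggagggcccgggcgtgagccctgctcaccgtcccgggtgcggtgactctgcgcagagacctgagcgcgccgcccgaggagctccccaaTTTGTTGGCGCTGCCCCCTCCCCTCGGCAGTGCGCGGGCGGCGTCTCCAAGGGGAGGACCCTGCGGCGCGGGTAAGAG
Col4a4: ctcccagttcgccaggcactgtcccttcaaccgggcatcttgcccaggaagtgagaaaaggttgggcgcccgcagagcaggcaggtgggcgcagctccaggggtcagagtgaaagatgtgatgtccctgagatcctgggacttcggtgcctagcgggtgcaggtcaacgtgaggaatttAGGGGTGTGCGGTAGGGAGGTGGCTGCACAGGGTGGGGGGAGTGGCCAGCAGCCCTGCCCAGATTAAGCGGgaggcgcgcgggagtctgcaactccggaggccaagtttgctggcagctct
The shared stretch of Col4a1 and Col4a2 was 73.1% G and C and held 1 copy of the GC box GGGCGG and 0 of CCAAT, both strands read. A window was at hand for 26 of the members, 33 windows in all. GGGCGG was in 66.7% of them and in 35.7% of the 32851 windows of all genes. CCAAT stood in 33.3% against 37.4%, TGGGAA, a core of the Rbpj site, in 33.3% against 25.6%, GGAATG, a core of the Tead site, in 15.2% against 14.7%, and the AP-1 site TGANTCA in 3.03% against 7.81%. The Col4a4 window held none of these letters. No motif of these 5 contains another, and a match describes the sequence only.

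Library totals ran from 6708822 to 16030880 counts, and the members took 0.502% to 1.35% of them. The cholangiocyte markers, 12 of 12 detected, summed to 11650 to 21250 CPM (a gene's reads relative to the normalized size of the library) per library. Of 13 fibroblast and stellate markers 12 averaged under 1 CPM, with Dcn, Lum and Thy1 at 0 in all libraries and a summed level of 0.566 to 30.04 CPM, and all 10 endothelial markers averaged under 1 CPM. Immune markers summed to 10.1 to 40.3 CPM, with Adgre1, Clec4f and C1qa at 0 in all libraries. Hepatocyte markers summed to 155 to 322 CPM, mostly Hnf4a, with Cps1 at 0. Mesothelial markers summed to 37.5 to 658 CPM, nearly all of it Msln. In bulk RNA, fewer cells of a type and less RNA per cell cannot be told apart.

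Of the 4 groups, WT peripheral cultures held the highest mean level of the most members, and Ndr hilar cultures the lowest. Of the 33 tested members, 17 had their highest mean log2 CPM in the WT peripheral group. The lowest was in the Ndr hilar group for 16. The same counts were not made over all genes, so they do not set the members apart from other genes. The mean centred level, which is the mean over the 33 members of log2(CPM + 0.5) minus each gene's mean over the libraries, was -0.016 ± 0.106 in WT hilar, 0.327 ± 0.0859 in WT peripheral, -0.261 ± 0.369 in Ndr hilar and -0.050 ± 0.841 in Ndr peripheral cultures (SD, n = 3 mice). In WT mice the 3 hilar cultures (0.100, -0.038 and -0.109) lay below the 3 peripheral ones (0.280, 0.275 and 0.426). The Ndr cultures did not divide by region.

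The Ndr libraries stood apart from one another, and 2 of them had by far the lowest mean levels. In the hilar culture of mouse 1219 the mean centred level was -0.685, with 29 of 33 members below their own mean and 11 at their lowest value. In the peripheral culture of mouse 1220 it was -0.953, with 31 of 33 members below their mean and 6 at their lowest value. The peripheral culture of mouse 1219 was at the other end, at 0.711, and held the highest value of 12 members. The cultures of 1 mouse therefore lay far apart in opposite directions, with hilum below periphery in mouse 1219 and above it in mouse 1220. The remaining Ndr cultures were at -0.0071 (hilar 1220), -0.091 (hilar 1224) and 0.091 (peripheral 1224). Hilar 1220 nonetheless held the lowest value of 6 members, and peripheral 1224 that of 5. None of these counts per library was made over all genes. The SD over mice was 0.841 in the Ndr peripheral group and 0.0859 in the WT peripheral group. Members' share of all counts was 0.546% and 0.502% in the 2 low libraries and 0.841% to 1.35% in the other 10. Most differences below carry an SE, which rests on 1 estimate of spread per gene shared by all groups of a fit. It does not show the wider spread of the Ndr cultures in particular. Medians are also given without these 2 libraries where they move.

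**Figure D1:**
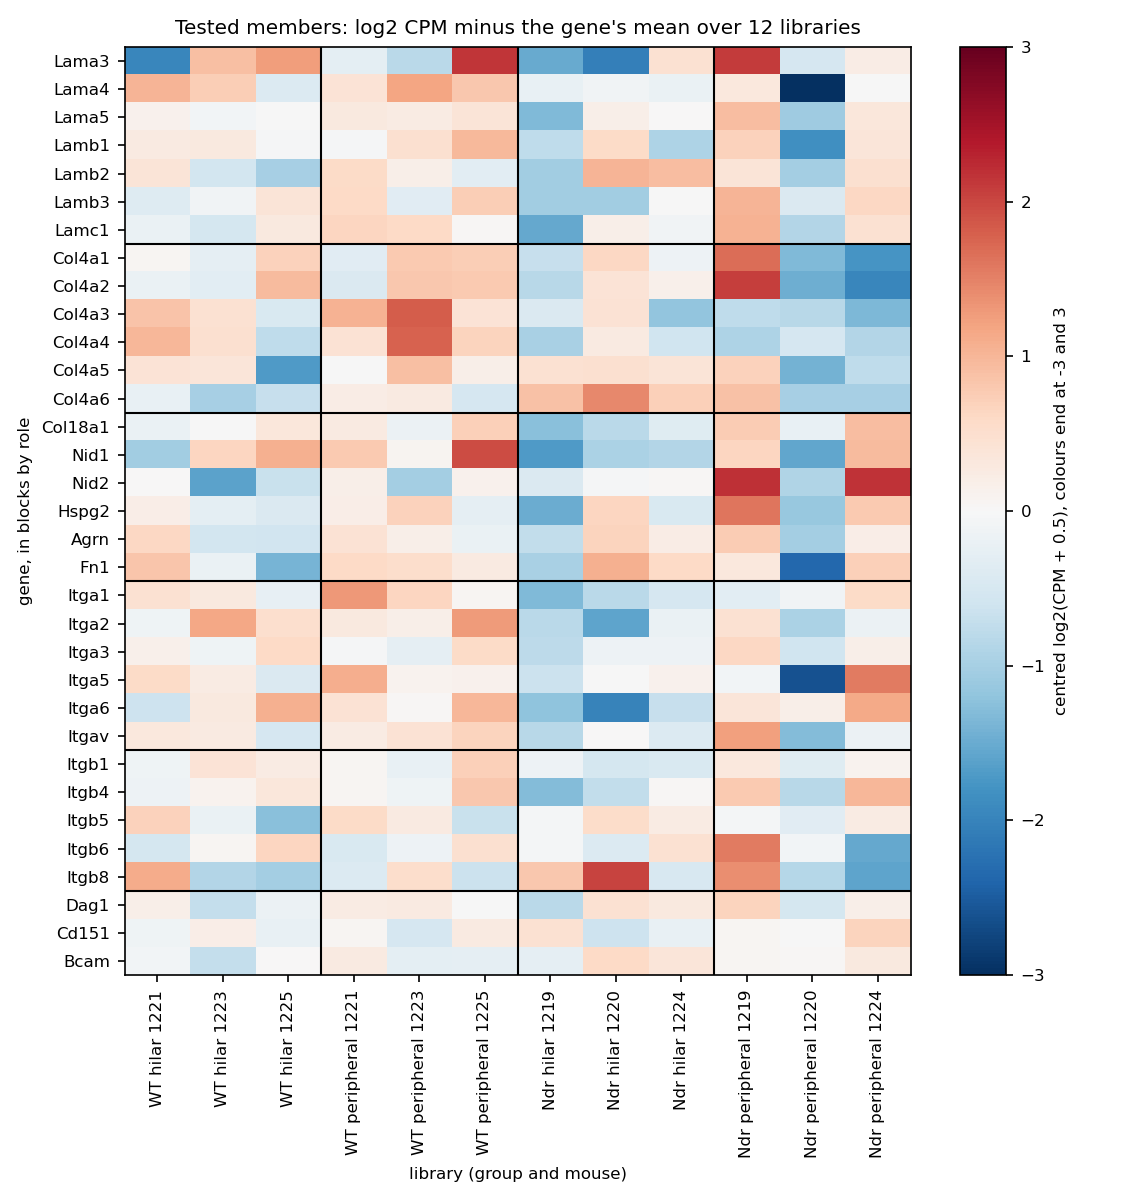
Heat map of the 33 tested members (rows, in blocks by role) in the 12 libraries (columns, by group and mouse); colour is log2(CPM + 0.5) minus the gene's mean over the libraries, ending at -3 and 3. The columns of Ndr hilar 1219 and Ndr peripheral 1220 are blue in most rows, and that of Ndr peripheral 1219 is red in most.

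**Figure D2:**
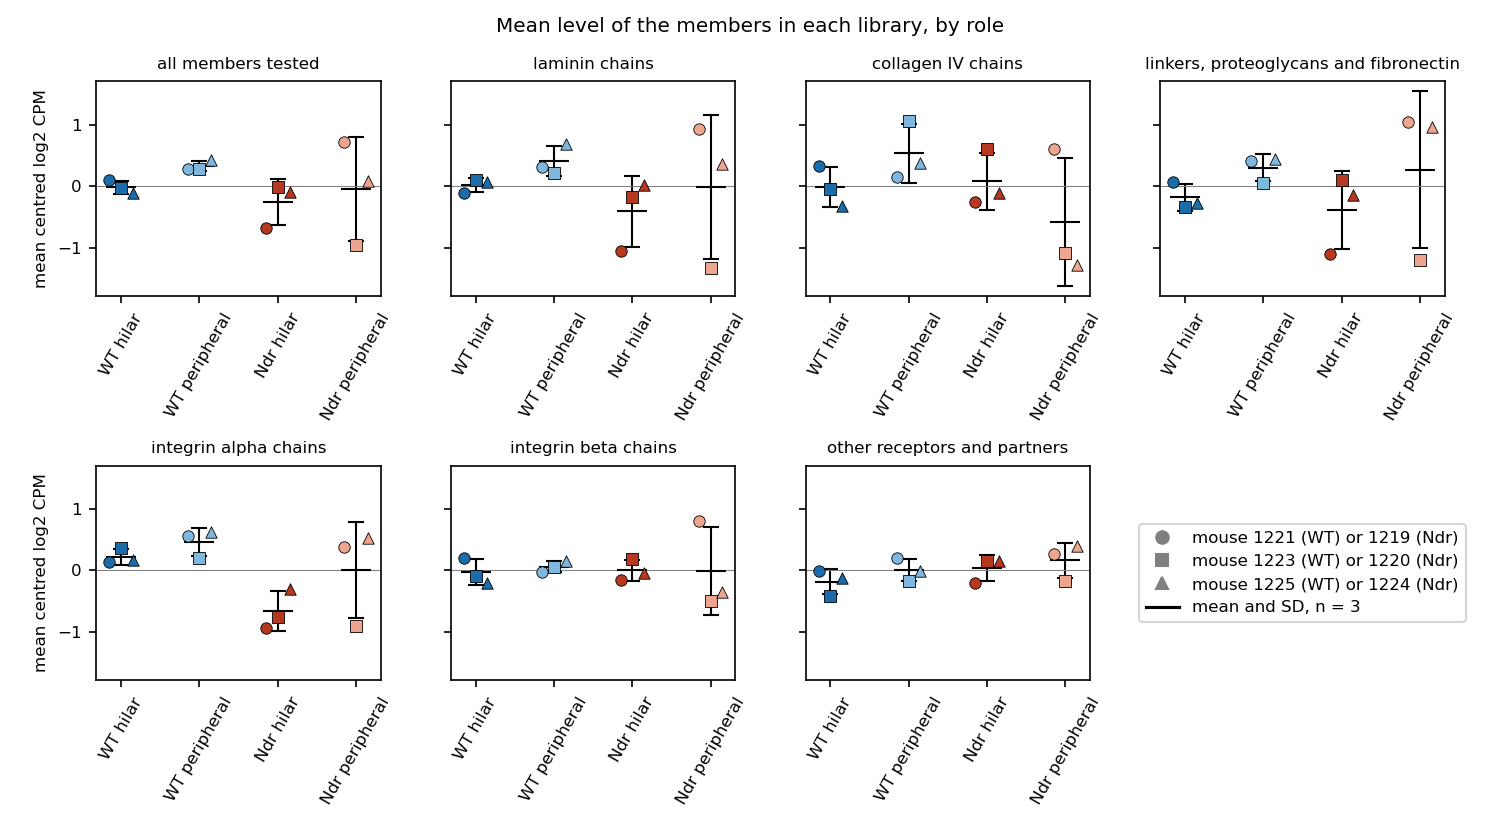
Mean centred log2 CPM of the members of each role (y axis) in each library (points, shaped by mouse), with the mean and SD of 3 cultures per group. All 3 Ndr hilar points for the integrin alpha chains lie below all 6 WT points, and the Ndr peripheral points are the most spread in every panel.

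No single member passed an adjusted p of 0.05 in any of the 7 comparisons fitted with edgeR, and no gene of the whole table did (0% of 15014 genes, or of 15401 in mouse totals). What follows therefore gives levels, and at an unadjusted p under 0.05 it sets the members' counts beside the share of all tested genes. Between genotypes in hilar cultures 6 of 33 members were under that threshold, 5 lower in Ndr and 1 higher, against 6.54% of all genes. In peripheral cultures it was 3 of 33, 2 lower and 1 higher, against 2.92%. In mouse totals, where the counts of a mouse's cultures were summed, it was 5 of 32, all lower in Ndr, against 5.42%. Between regions it was 0 of 33 in WT mice, against 0.506%, 6 of 33 in Ndr mice, all lower in the hilum, against 10.3%, and 5 of 33 over both genotypes, all lower in the hilum, against 6.07%. The interaction had 1 of 33, against 3% of all genes. DESeq2 called 1 member in 1 comparison, Itga6 between regions in Ndr mice, and limma-voom called 0 in each. When single libraries or mice were left out, 2 to 6 members were under the unadjusted threshold for the hilar genotype difference. For the peripheral one it was 2 to 8, and for mouse totals 2 to 8. The region difference had 0 to 1 in WT mice, 2 to 11 in Ndr mice and 3 to 10 over both genotypes. The interaction had 0 to 5. The share of all genes moved too. For the hilar genotype difference it was 1985 of 15298 genes without WT hilar 1221, where 6 members were under the threshold. Without WT hilar 1225 it was 518 of 15363 genes and 4 members. These ranges therefore do not describe the members alone.

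Levels below are CPM on normalized library sizes, always in the order of mice 1221, 1223 and 1225 for WT and 1219, 1220 and 1224 for Ndr. Differences are on the log2 scale with their SE, and positive values mean higher in Ndr, or higher in the hilum.

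Laminin chains. Lama5, whose product is the alpha chain of most mature epithelial basement membranes, was the main laminin alpha transcript. WT hilar cultures held Lama5 at 370.2, 323 and 338 CPM, WT peripheral ones at 414, 401 and 441, Ndr hilar ones at 136, 385 and 341 and Ndr peripheral ones at 642, 161 and 431. It was lowest in Ndr hilar 1219 and Ndr peripheral 1220. The 3 WT hilar cultures lay below the 3 WT peripheral ones, and the genotypes overlapped in both regions. Per kilobase of exon, Lama5 made up 65.0% to 93.8% of the alpha chain signal in each library, Lama3 2.66% to 30.8% and Lama4 0.503% to 8.21%. Lama3, the alpha chain of the laminin that anchors hemidesmosomes, ran from 10.3 to 197 CPM over the libraries, a 19.1-fold range, with a genotype difference in hilar cultures of -1.20 (SE 1.05, edgeR adjusted p = 0.843).

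Lamb3 encodes the beta chain that pairs with the Lama3 product, and per kilobase it was the most abundant laminin chain (34.7 CPM per kilobase over all libraries, Lama5 32.1, Lamc1 26.0). For Lamb3 the values were 158, 192 and 271 CPM in WT hilar and 316, 166 and 348 in WT peripheral cultures, with 101, 101 and 207 in Ndr hilar and 423, 154 and 319.6 in Ndr peripheral ones. Within each Ndr mouse the hilar culture was below the peripheral one, though the groups overlapped. The region difference in Ndr mice was -1.13 (SE 0.435, edgeR adjusted p = 0.435), and over both genotypes it was -0.77 (SE 0.305, edgeR adjusted p = 0.787).

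Lama4 encodes an alpha chain best known from vessels and other mesenchymal tissue. The CPM of Lama4 was 34.6, 28.3 and 12.6 in WT hilar, 22.4, 38.6 and 29.7 in WT peripheral, 14.4, 15.5 and 14.6 in Ndr hilar and 21.2, 1.04 and 16.7 in Ndr peripheral cultures. All 3 Ndr peripheral cultures were below the 3 WT peripheral cultures, with mouse 1220 lowest at 1.04. In mouse totals Lama4 averaged 28.7 ± 6.06 CPM in WT and 13.4 ± 5.64 in Ndr (SD, n = 3 mice), the totals of the genotypes not overlapping, with a difference of -1.09 (SE 0.355, edgeR adjusted p = 0.869). Lamb1 encodes a broadly expressed beta chain. Lamb1 stood at 117, 119 and 94.7 CPM in WT hilar, 95.3, 136 and 193 in WT peripheral, 57.1, 145 and 51.3 in Ndr hilar and 157, 26.7 and 125 in Ndr peripheral cultures. The lowest library was again Ndr peripheral 1220. Its totals were 129 ± 20.5 CPM in WT and 90.9 ± 15.0 in Ndr, without overlap, a difference of -0.51 (SE 0.177, edgeR adjusted p = 0.876).

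Lamb2 ran from 42.1 to 176 CPM and Lamc1, the gamma chain of most laminins, from 66.9 to 399.6 CPM. Their genotype differences were between -0.22 and 0.83 in both regions, each under 1.5 SE. The remaining chain, Lama1, was near the limit of detection, with 5 reads over all 12 libraries. Of the 7 tested laminin chains, 7 of 7 had a lower estimate in the hilum in WT mice, with a median of -0.38, and 5 of 7 in Ndr mice, with a median of -0.52. Of all genes, 46.1% and 51.3% were lower in these comparisons.

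Collagen IV chains. Col4a1 and Col4a2 encode the chains of the common collagen IV trimer, and they were the most abundant of the family, at 38.1 and 31.7 CPM per kilobase over all libraries. WT hilar cultures held Col4a1 at 243, 193 and 376 CPM, WT peripheral ones at 184, 400.0 and 392, Ndr hilar ones at 144, 359.6 and 209 and Ndr peripheral ones at 748, 92.7 and 68.2. For Col4a2 the values were 139.8, 129 and 310.4 CPM in WT hilar and 118, 281 and 277 in WT peripheral cultures, with 90.5, 213 and 179 in Ndr hilar and 681, 57.9 and 41.2 in Ndr peripheral ones. Both were highest in Ndr peripheral 1219 and lowest in Ndr peripheral 1224, so this group held both extremes. The genotype differences of Col4a1 were -0.19 (SE 0.768, edgeR adjusted p = 0.986) in hilar and -0.10 (SE 0.767, edgeR adjusted p = 1) in peripheral cultures. Those of Col4a2 were -0.26 (SE 0.881, edgeR adjusted p = 0.982) and 0.21 (SE 0.88, edgeR adjusted p = 1).

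Col4a1 and Col4a2, the pair whose windows are printed above, kept close to a fixed ratio while their levels ran over an 11.0-fold and a 16.6-fold range. The ratio of their levels per kilobase had a median of 1.35 and lay between 0.974 and 1.54 in the 12 libraries. Across the 6 mouse totals the log2 levels had a Pearson r of 0.966 (exact permutation p = 0.00278, adjusted over 6 pairs 0.0167) and a Spearman rho of 1 (exact permutation p = 0.00278, adjusted 0.0167). Without the 2 mice farthest from the median r was 0.999. The exons of these genes overlap by 22 bases in GENCODE M21, 0.29% of Col4a1 and 0.33% of Col4a2.

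Col4a3 (ENSMUSG00000079465) and Col4a4 (ENSMUSG00000067158) encode 2 of the chains of the collagen IV of kidney glomerulus, lung and cochlea, and both were at low levels here. The CPM of Col4a3 was 2.62, 1.85 and 0.754 in WT hilar, 3.02, 5.62 and 1.80 in WT peripheral, 0.774, 1.83 and 0.255 in Ndr hilar and 0.516, 0.471 and 0.183 in Ndr peripheral cultures. Col4a4 stood at 3.35, 2.16 and 0.628 CPM in WT hilar, 2.10, 6.10 and 2.54 in WT peripheral, 0.484, 1.83 and 0.766 in Ndr hilar and 0.516, 0.849 and 0.549 in Ndr peripheral cultures. In the periphery all 3 Ndr cultures were below all 3 WT cultures for both genes; in the hilum the genotypes overlapped. In mouse totals Col4a3 averaged 2.71 ± 1.32 CPM in WT and 0.623 ± 0.402 in Ndr, and Col4a4 2.98 ± 1.35 and 0.788 ± 0.391 (SD, n = 3 mice), with no overlap of genotypes for either gene. The peripheral differences were -3.12 (SE 0.773, edgeR adjusted p = 1) for Col4a3 and -2.46 (SE 0.715, edgeR adjusted p = 1) for Col4a4. In mouse totals they were -2.11 (SE 0.627, edgeR adjusted p = 0.844) and -1.91 (SE 0.512, edgeR adjusted p = 0.759). These values rest on 2 to 47 reads of Col4a3 and 5 to 55 of Col4a4 per library. M21 gives Col4a3 563 exonic bases, 5.65% of its length, in common with C430014B12Rik on the opposite strand, and the kit does not mark strand.

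Like the first pair, Col4a3 and Col4a4 moved together over mice, with a Pearson r of 0.956 (exact permutation p = 0.00833, adjusted over 6 pairs 0.025) and a Spearman rho of 0.943 (exact permutation p = 0.0167, adjusted 0.05). Without the 2 mice farthest from the median r was 0.964. The totals of both genes did not overlap between genotypes, so the relation includes that difference and could not be tested within a genotype of 3 mice.

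Col4a5 and Col4a6 sit head to head on the X chromosome, with starts 1343 bases apart in RefSeq. Col4a5 ran from 30.8 to 188 CPM and had 16.9 CPM per kilobase, against 0.0853 for Col4a6. WT hilar cultures held Col4a6 at 0.366, 0 and 0.126 CPM, WT peripheral ones at 0.672, 0.718 and 0.212, Ndr hilar ones at 1.35, 2.22 and 1.15 and Ndr peripheral ones at 1.34, 0 and 0. The 3 Ndr hilar cultures were the only group wholly above 1 CPM, and they did not overlap the WT hilar ones. Besides them only Ndr peripheral 1219 was above 1 CPM, so Col4a6 passed the filter on low counts through the Ndr hilar group. Its separation in the hilum is therefore no support for a difference, and it was not tested in mouse totals. The Ndr hilar values rest on 14, 17 and 9 reads against 6, 0 and 1, and the difference was 2.91 (SE 1.27, edgeR adjusted p = 0.75). Without the WT hilar culture of mouse 1221 it was 4.25. Across mice Col4a5 and Col4a6 had an r of 0.310 (exact permutation p = 0.525, adjusted over 6 pairs 0.525) and a rho of 0.257 (exact permutation p = 0.658, adjusted 0.79).

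**Figure D3:**
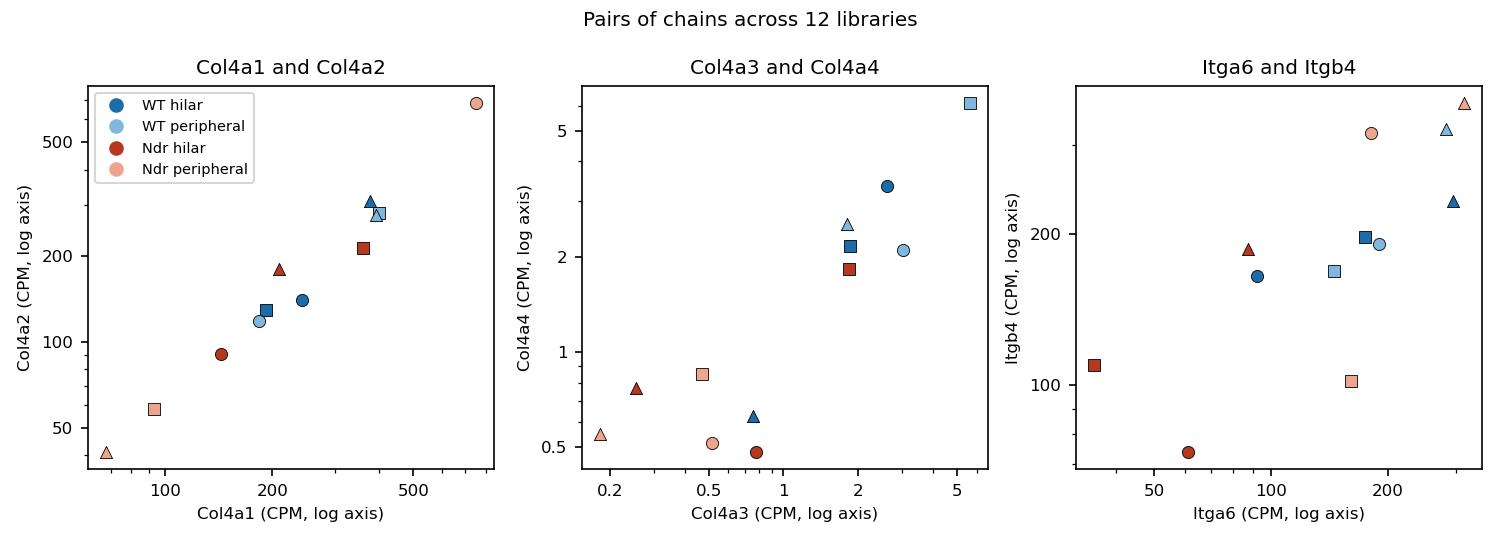
Level of the second gene of a pair (y) against the first (x), both in CPM on log axes, for Col4a1 with Col4a2, Col4a3 with Col4a4 and Itga6 with Itgb4, 1 point per library coloured by group and shaped by mouse as in the plot of role means. Col4a1 and Col4a2 lie along a line over more than a 10-fold range, and the Ndr peripheral points take both ends of it.

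Linkers, proteoglycans and fibronectin. Fn1, the fibronectin gene, had the highest level of this role per kilobase (174 CPM over all libraries), followed by Agrn (110), the gene of the proteoglycan agrin, which binds laminin and dystroglycan. For Fn1 the values were 3014, 1484 and 649 CPM in WT hilar and 2562, 2458 and 2048 in WT peripheral cultures, with 864, 3562 and 2563 in Ndr hilar and 2113, 333 and 2810 in Ndr peripheral ones. The CPM of Agrn was 1473, 649 and 639 in WT hilar, 1276, 1068 and 835 in WT peripheral, 574, 1505 and 1118 in Ndr hilar and 1601, 469.8 and 1091 in Ndr peripheral cultures. Both were lowest in Ndr peripheral 1220, and the groups overlapped. Fn1 was highest in the hilar culture of the same mouse, 10.7-fold above. Their genotype differences were within 1 SE in both regions, 0.44 (SE 0.74, edgeR adjusted p = 0.947) for Fn1 and 0.21 (SE 0.499, edgeR adjusted p = 0.971) for Agrn in hilar cultures.

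Col18a1 encodes the basement membrane collagen whose end fragment is endostatin. Col18a1 stood at 199, 229 and 293 CPM in WT hilar, 276, 204 and 379 in WT peripheral, 95.8, 131 and 179 in Ndr hilar and 392, 196 and 438 in Ndr peripheral cultures. All 3 Ndr hilar cultures were below the 3 WT hilar and the 3 Ndr peripheral cultures. The genotype difference in the hilum was -0.83 (SE 0.353, edgeR adjusted p = 0.75), and the region difference in Ndr mice was -1.34 (SE 0.356, edgeR adjusted p = 0.417). In the periphery the genotypes overlapped, 0.26 (SE 0.35, edgeR adjusted p = 1), and the interaction was -1.09 (SE 0.497, edgeR adjusted p = 0.994).

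Nid1 and Nid2 encode nidogens, which link laminin to collagen IV. WT hilar cultures held Nid1 at 14.1, 46.2 and 62.4 CPM, WT peripheral ones at 51.0, 31.1 and 116, Ndr hilar ones at 8.80, 15.0 and 15.8 and Ndr peripheral ones at 46.6, 9.62 and 57.5. The Ndr hilar cultures lay around the lowest WT hilar culture, that of mouse 1221, and below the other WT ones. The difference was -1.63 (SE 0.709, edgeR adjusted p = 0.75). For Nid2 the values were 1.52, 0.154 and 0.754 CPM in WT hilar and 1.76, 0.478 and 1.70 in WT peripheral cultures, with 0.967, 1.44 and 1.53 in Ndr hilar and 8.57, 0.566 and 8.42 in Ndr peripheral ones. The peripheral cultures of Ndr mice 1219 and 1224 were above all others and that of mouse 1220 was not, so the groups overlapped. The peripheral genotype difference of Nid2 was 2.13 (SE 0.899, edgeR adjusted p = 1), and its region difference in Ndr mice -2.15 (SE 0.907, edgeR adjusted p = 0.458). Nid2 had 1 to 92 reads per library, and 437 of its exonic bases, 8.45%, are shared with Rtraf on the opposite strand. Hspg2, which encodes perlecan, ran from 62.8 to 544 CPM, with differences between genotypes of -0.04 (SE 0.628, edgeR adjusted p = 0.996) and 0.55 (SE 0.629, edgeR adjusted p = 1).

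Integrin alpha chains. All 6 alpha chains had lower estimates in Ndr than in WT hilar cultures, with a median of -0.81, as did 50.5% of all genes. Of the 6, 3 (Itga6, Itga2 and Itga1) had an unadjusted edgeR p under 0.05, against 6.54% of all genes. On the deposited normalized table Itga1 (0.015) and Itga5 (1.15) were not lower in Ndr. The mean centred level of the 6 genes was -0.666 ± 0.323 in Ndr hilar and 0.214 ± 0.124 in WT hilar cultures, and the values did not overlap. In the periphery 4 of 6 estimates were lower in Ndr, with a median of -0.14, as were 45.5% of all genes.

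Itga6 (ENSMUSG00000027111) encodes the alpha chain that joins the product of Itgb4 in hemidesmosomes and binds laminin. The CPM of Itga6 was 92.2, 174 and 294 in WT hilar, 189.7, 145 and 283 in WT peripheral, 61.3, 35.1 and 87.2 in Ndr hilar and 181, 160.3 and 313 in Ndr peripheral cultures. The Ndr hilar cultures, 61.2 ± 26.0 CPM, were below all 9 others, though the highest of them (87.2) lay close to the WT hilar culture of mouse 1221 (92.2). The hilar genotype difference was -1.61 (SE 0.472, edgeR adjusted p = 0.75), and the region difference in Ndr mice was -1.83 (SE 0.475, edgeR adjusted p = 0.417). By DESeq2 the latter had an adjusted p of 0.0371; over the other alternatives it ran from 0.054 to 0.816. In the periphery the genotypes averaged 206 ± 70.1 and 218 ± 82.9 CPM, a difference of 0.08 (SE 0.459, edgeR adjusted p = 1). The interaction was -1.69 (SE 0.655, edgeR adjusted p = 0.994), and Itga6 was the 1 member under an unadjusted p of 0.05 there. With libraries left out singly the hilar genotype difference ran from -1.98 to -1.12.

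Itga2 and Itga1 encode alpha chains of collagen-binding integrins. Itga2 stood at 324, 794 and 500.2 CPM in WT hilar, 434, 402 and 856 in WT peripheral, 203, 118 and 307 in Ndr hilar and 487, 183 and 313 in Ndr peripheral cultures. Ndr hilar cultures did not overlap WT hilar ones, and mouse totals, 550.2 ± 165 CPM in WT and 266 ± 99.3 in Ndr (SD, n = 3 mice), did not overlap either. The difference was -1.37 (SE 0.491, edgeR adjusted p = 0.75) in the hilum, -0.78 (SE 0.485, edgeR adjusted p = 1) in the periphery and -1.05 (SE 0.355, edgeR adjusted p = 0.869) in totals. WT hilar cultures held Itga1 at 48.8, 43.6 and 29.8 CPM, WT peripheral ones at 88.6, 56.2 and 36.8, Ndr hilar ones at 13.9, 20.0 and 25.0 and Ndr peripheral ones at 28.3, 33.0 and 52.9. Itga1 was lower in the hilar than in the peripheral culture of all 6 mice, by 0.30 to 1.07 on the log2 scale, the only one of 33 members of which this held, against 1.37% of all genes. No member was higher in all 6, as 1.12% of all genes were. Its region difference over both genotypes was -0.76 (SE 0.258, edgeR adjusted p = 0.786), and its genotype difference in the hilum -1.05 (SE 0.369, edgeR adjusted p = 0.75). On the deposited normalized table the latter was 0.01, and with derivation date as a factor it was -0.068. With date as a factor the genotypes are compared on the 1 date they share, with 1 mouse of each. M21 places Gm49395 on the same strand over 685 exonic bases of Itga1, 3.68% of its length.

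Itga3, the alpha chain of the main laminin receptor of many epithelia, was the most abundant alpha chain, at 40.1% to 68.7% of the family's signal per kilobase. For Itga3 the values were 790.3, 646 and 1068 CPM in WT hilar and 691, 592 and 1061 in WT peripheral cultures, with 409.9, 639 and 634 in Ndr hilar and 1093, 466 and 796 in Ndr peripheral ones. Ndr hilar cultures were below WT hilar ones without overlap, narrowly, and the difference was -0.57 (SE 0.36, edgeR adjusted p = 0.797). The chains of the fibronectin and vitronectin receptors, Itga5 and Itgav, ran from 2.26 to 49.8 and from 114 to 659.8 CPM, with hilar genotype differences of -0.34 (SE 0.76, edgeR adjusted p = 0.967) and -0.45 (SE 0.51, edgeR adjusted p = 0.897).

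Integrin beta chains and other receptors. Itgb1, the partner of Itga1, Itga2, Itga3, Itga5 and, in many cells, Itga6, was the most abundant member per kilobase (303 CPM) and made up 77.1% to 87.6% of the beta chain signal. The CPM of Itgb1 was 1095, 1600 and 1429 in WT hilar, 1253, 1019 and 1968 in WT peripheral, 1070, 835 and 869 in Ndr hilar and 1504, 928 and 1289 in Ndr peripheral cultures. Its 3 Ndr hilar cultures were below the 3 WT hilar ones, with mouse 1219 and WT mouse 1221 nearly level (1070 and 1095 CPM). The difference was -0.57 (SE 0.305, edgeR adjusted p = 0.751). Itgb4 is the beta chain of hemidesmosomes. Itgb4 stood at 165, 197 and 233 CPM in WT hilar, 191, 168 and 323 in WT peripheral, 73.9, 109.6 and 187 in Ndr hilar and 318, 102 and 363 in Ndr peripheral cultures. Its Ndr hilar cultures were mostly low and overlapped both other sets. The region difference in Ndr mice was -1.08 (SE 0.469, edgeR adjusted p = 0.471). A share of 7.66% of its exonic bases lies opposite B230344G16Rik. Across mice Itga6 and Itgb4 had an r of 0.872 (exact permutation p = 0.0319, adjusted over 6 pairs 0.0639) and a rho of 0.771 (exact permutation p = 0.103, adjusted 0.154); without the 2 farthest mice r was 0.674.

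Itgb5 and Itgb6, partners of Itgav, ran from 35.04 to 135 and from 15.1 to 134 CPM, and Itgb8, a further partner, from 0.0915 to 6.66 CPM on 1 to 55 reads. Their hilar genotype differences were 0.32 (SE 0.441, edgeR adjusted p = 0.93), -0.10 (SE 0.623, edgeR adjusted p = 0.991) and 1.17 (SE 1.18, edgeR adjusted p = 0.879). Bcam, a laminin receptor of the immunoglobulin family, and Dag1, which encodes dystroglycan, ran over a 2.52-fold and a 2.79-fold range. WT hilar cultures held Bcam at 498, 318 and 527 CPM, WT peripheral ones at 634, 429 and 433, Ndr hilar ones at 436, 800.0 and 678 and Ndr peripheral ones at 546, 541 and 646. For Dag1 the values were 436, 236 and 343 CPM in WT hilar and 459, 468 and 386 in WT peripheral cultures, with 220.0, 533 and 477 in Ndr hilar and 613, 268 and 440.4 in Ndr peripheral ones. Bcam was higher in Ndr than in WT on average in both regions, with overlap, 0.51 (SE 0.291, edgeR adjusted p = 0.774) in the hilum. Dag1 differed by 0.28 (SE 0.38, edgeR adjusted p = 0.928). Cd151, a tetraspanin that partners laminin-binding integrins, ran from 158 to 385 CPM, with estimates of -0.01 and 0.30 between genotypes in hilar and peripheral cultures. The hemidesmosomal collagen Col17a1 had 0.207 CPM at most.

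Across mouse totals the other chosen pairs, Lama3 with Lamb3 and Lamb1 with Lamc1, had an r of 0.736 (exact permutation p = 0.0931, adjusted over 6 pairs 0.14) and 0.687 (exact permutation p = 0.219, adjusted 0.263). Their rho values were 0.886 and 0.0286, with exact permutation p of 0.0333 and 1 (adjusted 0.0667 and 1). Without the 2 farthest mice r was 0.259 and -0.59. Leaving out the farthest mice also narrows the range, so these values do not show what the relations rested on.

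**Figure D4:**
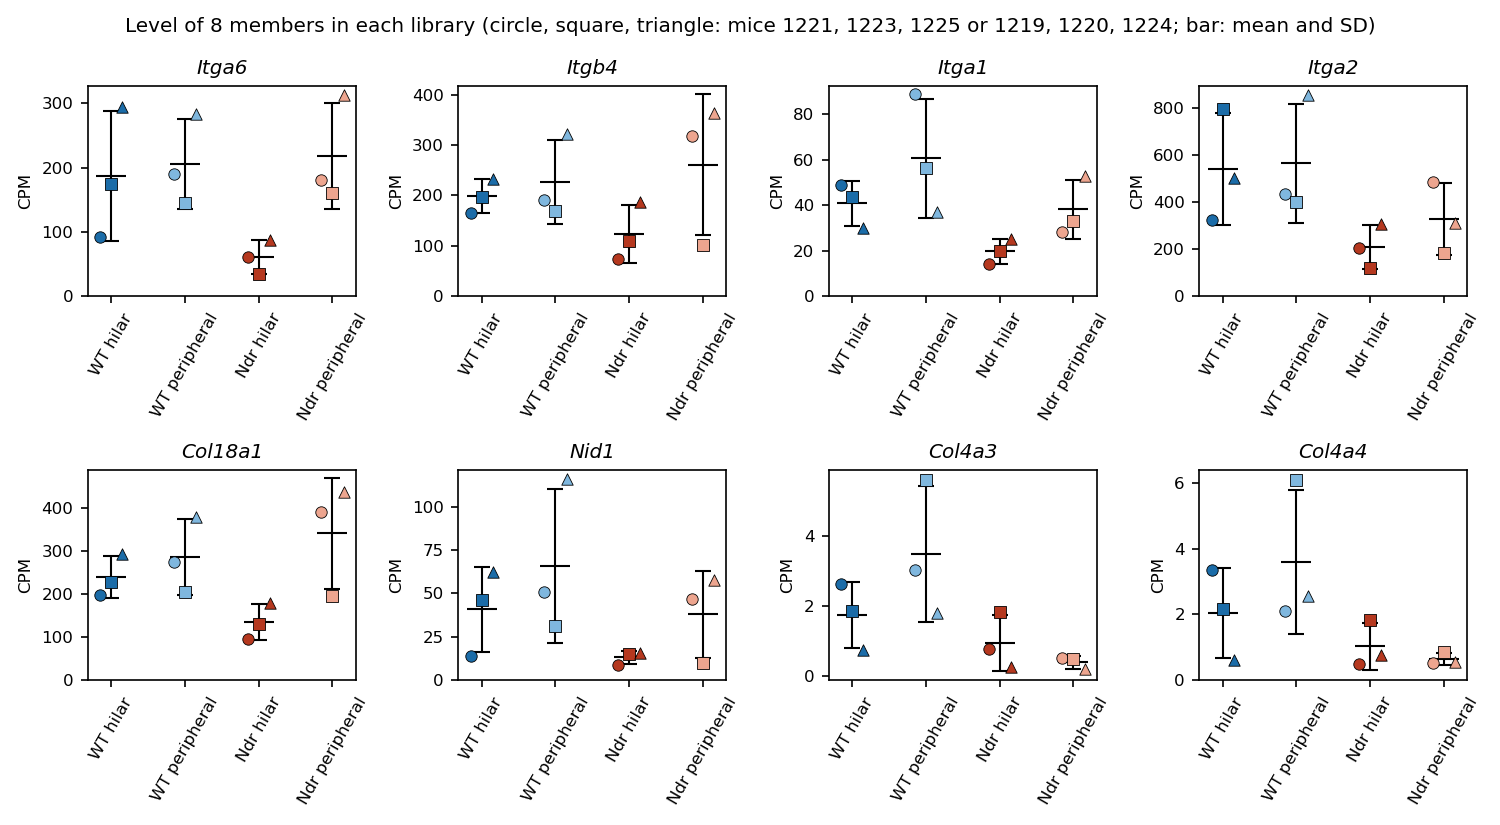
Level in CPM (y axis, from 0) of Itga6, Itgb4, Itga1, Itga2, Col18a1, Nid1, Col4a3 and Col4a4 in each library, by group (points, shaped by mouse), with mean and SD of 3 cultures. The Ndr hilar points of Itga6, Itga1, Itga2 and Col18a1 lie below the WT hilar ones, and the Ndr peripheral points of Col4a3 and Col4a4 lie below the WT peripheral ones.

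Between genotypes in the hilum, Ndr cultures thus held less of 6 members without overlap (Col18a1, Itga1, Itga2, Itga3, Itga6 and Itgb1), against 4.18% of all genes, and more of 1 (Col4a6), against 4.57%. Col4a6 passed the filter on low counts through the Ndr hilar cultures, so its place here is no support for a difference. The median difference of the 33 members was -0.26, beside -0.0046 over all genes, and 23 of 33 were lower, as were 50.5% of all genes. Leaving out single libraries moved it between -0.52 and -0.13, the latter without Ndr hilar 1219; it was also -0.13 without both low libraries. The 15 proliferation markers were lower in Ndr hilar than in WT hilar cultures in 15 of 15 cases, with a median of -1.74 and summed levels of 389 to 701 CPM against 455 to 2678; the high end is WT hilar 1225. Their part in the differences of the members was not tested.

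In the periphery 3 members were lower in Ndr without overlap (Lama4, Col4a3 and Col4a4), against 3.61% of all genes, and 0 were higher, against 5.41%. The median of the members was -0.051, beside 0.033 over all genes, and 19 of 33 were lower, as were 45.5% of all genes. Its direction hung on single Ndr cultures, at 0.25 without Ndr peripheral 1220 and -0.50 without Ndr peripheral 1219, and 0.25 without both low libraries. In mouse totals 5 of 32 were lower without overlap (Lama4, Lamb1, Col4a3, Col4a4 and Itga2), against 5.78%, and 0 were higher, against 5.49%. The median there was -0.16, beside -0.0045 over all genes, and 0.017 without mouse 1220. The derivation dates differ between genotypes, with WT cultures begun on June 15 and 21 and Ndr cultures on June 17, 18 and 21. The last date alone holds both, with 1 mouse of each. With date as a factor, 3 of 33 members had an unadjusted p under 0.05 in the hilum, against 9.38% of all genes in that fit. In the periphery it was 1 of 33, against 2.54%, and in totals 11 of 32, against 10.5%. The medians of the members were then -0.11, -0.0068 and -0.13.

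Between regions in WT mice, 30 of 33 members had a lower estimate in the hilum, as did 46.1% of all genes. The lean was not particular to the members, as 62 of the 82 related genes described below were lower too. The median was -0.34, beside 0.028 over all genes, and it stayed between -0.48 and -0.25 with single libraries left out. In WT mice 1 member (Lama5) was lower in the hilum without overlap, against 2.6% of all genes, and 0 were higher, against 2.94%. The largest of these estimates were those of Col4a6 (-1.38, SE 1.31), Col4a3 (-0.97, SE 0.688) and Col4a4 (-0.77, SE 0.661), each under 1.5 SE. In Ndr mice 22 of 33 were lower in the hilum, as were 51.3% of all genes, with a median of -0.47 beside -0.013 over all genes. Of these members, 3 did not overlap (Col18a1, Itga1 and Itga6), against 7.93% of all genes, and 0 were higher without overlap, against 7.49%. The median was 0.10 without Ndr peripheral 1219, -0.72 without Ndr peripheral 1220, -0.61 without both low libraries and -0.26 with mouse as a block. The proliferation markers were lower in the hilum in 15 of 15 cases in Ndr mice, with a median of -1.80, and higher in 15 of 15 in WT mice, with a median of 0.43; their part was not tested. Over both genotypes 28 of 33 members were lower in the hilum, as were 47.8% of all genes, with a median of -0.31 beside 0.015.

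The region difference of the members was not shown to depend on the genotype. In 2 members, Col4a3 and Col4a6, the hilar culture was below the peripheral one in all WT mice and above it in all Ndr mice, against 0.733% of all genes. The reverse held for 0 members, against 0.579%. In mouse 1224 Col4a3 had 2 reads in both cultures, and in mouse 1219 the difference of Col4a6 was only 0.0086. The interaction had a median of -0.25 beside -0.045 over all genes, was 0.30 without Ndr peripheral 1219 and 0.044 with mouse as a block. By role its medians were 1.26 for collagen IV chains, -0.70 for linkers and -0.48 for integrin alpha chains. The region comparisons and the genotype comparisons use the same 12 libraries, so their values are not independent of one another.

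**Figure D5:**
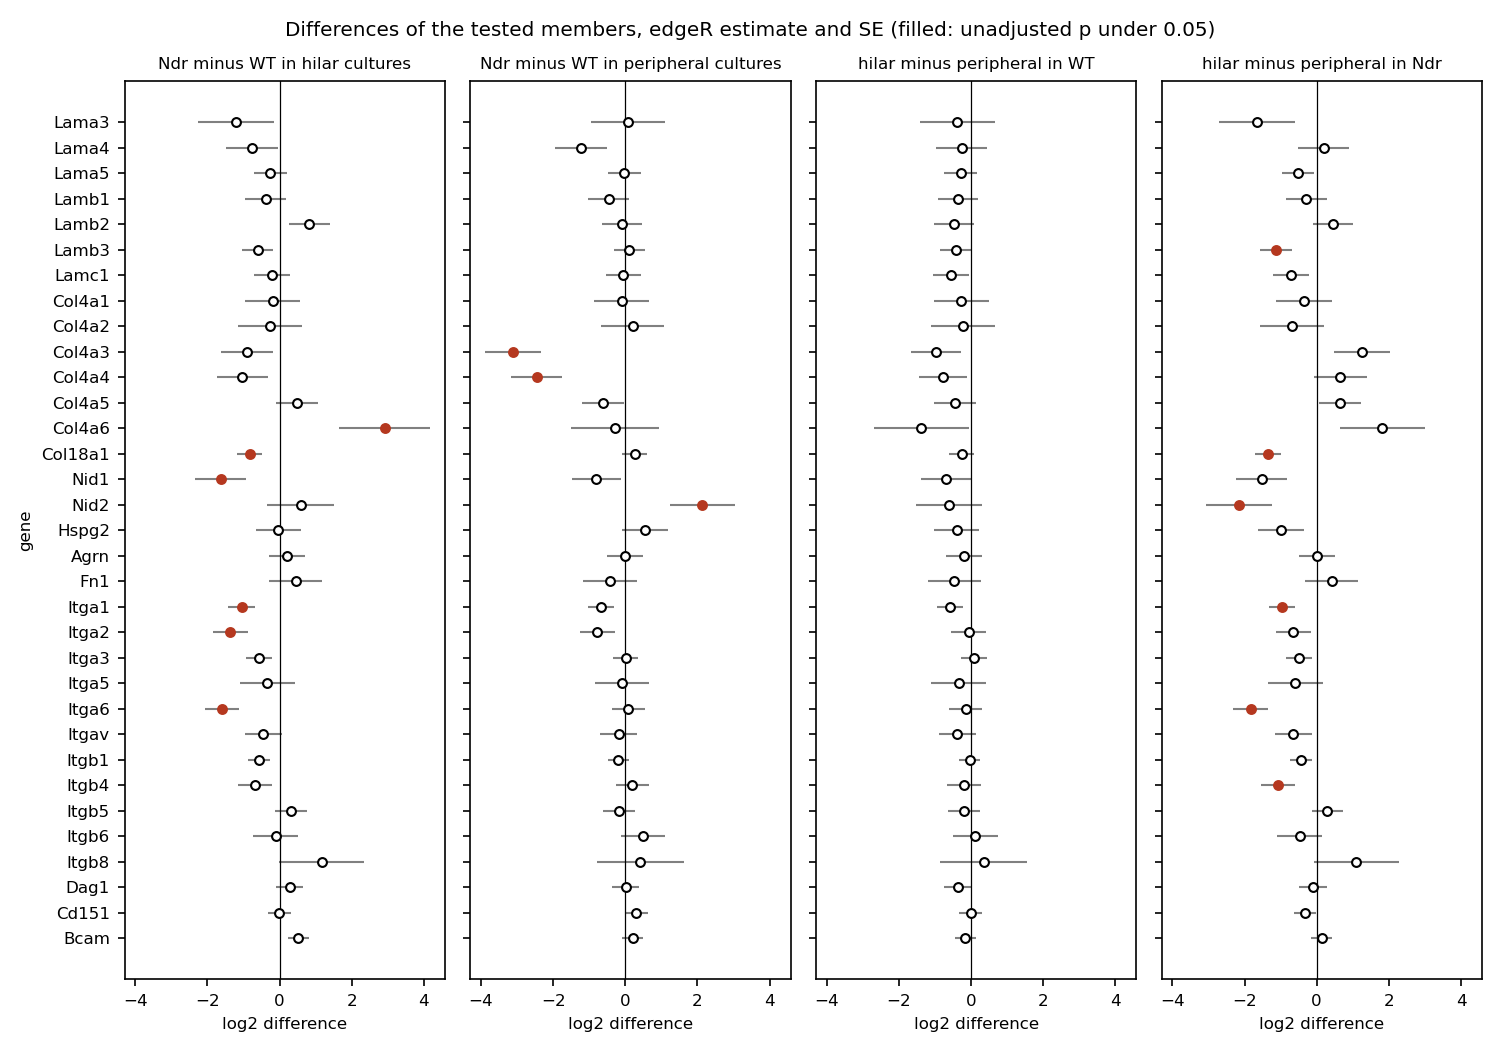
Log2 differences (x axis, edgeR estimate and SE) of the 33 tested members (rows) between genotypes in each region and between regions in each genotype; filled points have an unadjusted p under 0.05. The 6 integrin alpha chains lie left of 0 in the hilar genotype panel and in the Ndr region panel, and 30 of 33 points lie left of 0 in the WT region panel.

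Other genes of the same system were taken from 4 lists, with 105 genes in all, 82 of which were tested in the 12-library fit and 84 in mouse totals. They cover further matrix genes, further integrins and receptors, adhesion plaque and hemidesmosome genes, and matrix enzymes. By edgeR and limma-voom 0 of them passed in any comparison. DESeq2 called Smoc1, Sparc and Tnc between genotypes in the hilum, 3 of 82, beside 41 of 15014 genes in all. It called Ntn1 in the periphery, 1 of 82, and Tnc and Ntn1 in mouse totals, 2 of 84. In the interaction it called Smoc1, 1 of 82. The count over all genes for mouse totals stands in the last section. Those for the periphery and the interaction are not given here. At an unadjusted p under 0.05 there were 1 higher and 6 lower in Ndr in the hilum, beside 6.54% of all genes, 2 and 3 in the periphery, beside 2.92%, and 3 and 3 in mouse totals, beside 5.42%. Between regions there were 1 higher and 0 lower in the hilum in WT mice, beside 0.506% of all genes, 3 and 8 in Ndr mice, beside 10.3%, and 1 and 7 over both genotypes, beside 6.07%. The interaction had 2 and 1, beside 3%. Their medians between genotypes were -0.19 in the hilum and -0.12 in the periphery. Between regions they were -0.16 in WT and -0.16 in Ndr mice.

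Tnc, which encodes the matrix protein tenascin C, and Ntn1, the netrin that shares a domain with laminins, had the smallest p in totals. Tnc averaged 33.0 ± 7.63 CPM in WT and 3.46 ± 1.56 in Ndr mice, -3.25 (SE 0.4, edgeR adjusted p = 0.243), and Ntn1 75.6 ± 48.2 and 11.0 ± 2.88, -2.78 (SE 0.499, edgeR adjusted p = 0.431). Sparc, a collagen-binding matrix glycoprotein, was higher in Ndr totals, at 1.99 ± 0.537 against 0.419 ± 0.252 CPM, 2.18 (SE 0.521, edgeR adjusted p = 0.677). It averaged 3.835 ± 1.789 CPM in Ndr hilar and 0.287, 0.566 and 0.642 in WT hilar, WT peripheral and Ndr peripheral cultures. Sparc thus passed the filter on low counts through the Ndr hilar cultures. Neither this value nor its DESeq2 call in the hilum is therefore support for a difference. Smoc1, a calcium-binding basement membrane protein, averaged 20.9 ± 10.7 CPM in WT hilar, 2.70 ± 0.974 in WT peripheral, 1.69 ± 0.596 in Ndr hilar and 9.55 ± 9.59 in Ndr peripheral cultures, with an interaction of -5.43 (SE 1.16, edgeR adjusted p = 0.994). The region difference of Smoc1 had opposite signs in WT and Ndr mice, 2.95 (SE 0.816) and -2.48 (SE 0.823). The integrin beta chain Itgb3, a partner of Itgav, averaged 3.78 ± 1.69 CPM in WT and 1.43 ± 0.245 in Ndr totals, -1.40 (SE 0.41, edgeR adjusted p = 0.813). Among the enzymes, Plod2, a collagen lysyl hydroxylase, was lower in the hilum over both genotypes, -1.04 (SE 0.297, edgeR adjusted p = 0.786). Loxl1 went the other way in that comparison, 2.12 (SE 0.8, edgeR adjusted p = 0.786). Loxl2, a lysyl oxidase that cross-links collagen IV, was lower in the hilum in Ndr mice, -3.95 (SE 1.29, edgeR adjusted p = 0.417). In these mice Loxl2 averaged 3.64 ± 2.82 CPM in the hilum and 56.9 ± 75.8 in the periphery.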

How the data were processed

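Total RNA of 12 organoid cultures was sequenced from libraries made with the TruSeq RNA v2 kit, which does not mark strand, per the labels' protocols. The authors deposited raw read counts per gene; featureCounts and GRCm39 are named in the submitters' processing notes, and the aligner, annotation release and handling of shared reads are not stated there. They also deposited a normalized signal table, for which the notes name DESeq2 1.34.0. Multiplied by 1 factor per library its values came out whole within 0.01, but 39.4% to 45.4% of them equalled the raw count, so a further, unstated step lies between the tables. All main results start from the raw counts.

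Names and exonic lengths came from GENCODE M21 (52093 identifiers named) on GRCm38, a build other than that of the counts, and promoter windows from RefSeq (GRCm38.p6).

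The counts were fitted with edgeR 4.0.16 under R 4.3.3, using filterByExpr, TMM scaling and the quasi-likelihood test, with Benjamini-Hochberg adjustment over all tested genes and a threshold of 0.05. The models were 4 groups over 12 libraries (8 residual degrees of freedom) and genotype in 6 mouse totals (4 residual degrees of freedom). Scripts were tested on simulated data. Alternatives were DESeq2 1.42.0, limma-voom and limma-trend (limma 3.58.1), other normalizations, no filter, left-out libraries, mouse as a block and derivation date as a factor. Pairs of chains were compared by exact two-sided permutation over 6 mice (720 orders). For 3 mice against 3 the smallest exact permutation p is 0.1, so other p-values come from the models.

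Hilar and peripheral cultures with the same number come from 1 mouse, per the labels. Their deviations from the group means correlated at 0.333, -0.062 and 0.450 (mice 1221, 1223 and 1225) and at -0.314, -0.340 and 0.140 (mice 1219, 1220 and 1224).

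The members and lists were chosen with earlier results of these data known. Every library's value is given for members with an unadjusted edgeR p under 0.05 in any of 7 comparisons and for the 2 most abundant members of each role. Related genes are named from the up to 4 with the smallest p per comparison.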

Additional observations from a re-analysis of the deposited data

Results flagged for a closer look

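Of the members, 2 had a region difference of opposite sign in all WT and all Ndr mice, 2 of 33 with the hilum lower in WT, against 0.733% of all genes, and 0 with it higher in WT, against 0.579%. The interaction estimate of Col4a3 was 2.23 on the log2 scale (SE 1.04, edgeR adjusted p = 0.994). Its hilar culture was below the peripheral one in each WT mouse and above it in each Ndr mouse, by 0.15 to 1.26. In mouse 1224, however, both cultures had 2 reads of Col4a3, so the sign there comes from library size alone. In mouse 1219 the hilar and peripheral cultures had 8 and 5 reads. For Col4a6 the interaction was 3.20 (SE 1.76, edgeR adjusted p = 0.994), with the same signs over the 6 mice, although in mouse 1219 the difference was only 0.0086. Neither interaction passed the threshold, and both genes rest on few reads, 2 to 47 and 0 to 17 per library. Col4a6 also passed the filter on low counts through the Ndr hilar cultures, where it was highest on average.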

How the results depend on the processing

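No member was called at an adjusted p of 0.05 in 107 of 111 alternative results over the 7 comparisons. DESeq2 called 1 member between regions in Ndr mice, Itga6, and 72 of all genes; it called 41 genes in all in the hilar genotype comparison and 113 in mouse totals. On the authors' normalized table limma-trend called 4 members between genotypes in the hilum, 1 in the periphery and 21 in mouse totals (14 lower and 7 higher in Ndr), beside 1615, 140 and 7272 of all genes. The step between the tables is not known, so these calls were not used. On that table the hilar genotype differences of Itga1 and Itga5 turned to 0.0149 and 1.15. The r of Lamb1 with Lamc1 turned to -0.19 (exact permutation adjusted p = 0.802). The cause was not tested.

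With mouse as a replicate block, since the mice pair the cultures, 0 members were called, and the medians of the region difference were -0.33 in WT, -0.26 in Ndr and -0.18 over both genotypes, with 0.044 for the interaction. Leaving out single libraries, the median ran from -0.72 to 0.10 for the Ndr region difference and from -0.53 to 0.30 for the interaction, the upper value of each without Ndr peripheral 1219. With derivation date as a factor the genotype medians were -0.11 in the hilum, -0.0068 in the periphery and -0.13 in totals, and the hilar difference of Itga1 was -0.068. Genotypes share 1 date only, so in totals that fit sets mouse 1224 against mouse 1225. In the fit over libraries these mice set the genotype difference averaged over regions. The region differences of all mice also enter its hilar and peripheral values. The alternative without the libraries of lowest member share was chosen after seeing the data. Of 402 results for single members, 393 kept direction and side of the threshold. Depth limits Col4a3, Col4a4, Col4a6, Nid2 and Itgb8, and Lama1 and Col17a1 were too low to test. With 3 mice a group, p-values reflect these animals only.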
